A study of Homo sapiens with 6 samples.

Results

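The EGF family ligands were examined on 6 expression arrays of MCF10A, an immortalised human breast epithelial line that does not form tumours. The members were taken by name: EGF, TGFA, AREG, EREG, HBEGF, BTC, EPGN, NRG1, NRG2 and NRG4, each read at every probe set (a group of short array probes summarised as 1 value) whose only annotated gene symbol was that ligand. This gave 22 of the 54613 probe sets tested, for 8 of the 10 ligands. For AREG and EPGN the annotation used here gave 0 probe sets, and they were not analysed here. The tested cells were MCF10A cells with C/EBPbeta-2 (3 arrays), one of the proteins made from CEBPB, a leucine zipper transcription factor gene, and they were set against MCF10A cells alone (3 arrays, called control). The sources used here give neither the way in which the cells received C/EBPbeta-2 nor whether they are 1 clone or a pool. Cells of both groups grew in medium with horse serum, insulin, hydrocortisone, cholera toxin and 10 ng/ml EGF, so EGFR had an added ligand in every sample. The samples are labelled as biological replicates, but nothing says what set them apart, so the p-values rest on a spread that may be technical.

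The ligands of this family are made as membrane-anchored precursors with an EGF-like domain, and metalloproteases of the ADAM family cut many of them from the cell surface. They bind the ERBB receptor tyrosine kinases: EGF, TGFA, AREG and EPGN bind EGFR, HBEGF, BTC and EREG bind EGFR and ERBB4, and the neuregulins bind ERBB3 and ERBB4 or, for NRG4, ERBB4. Bound receptors pair and signal through the MAP kinase and PI3 kinase pathways. In mammary epithelium AREG is known for its part in duct growth, and MCF10A cells are known to need EGF receptor ligands in their medium.

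With C/EBPbeta-2, the epiregulin gene EREG rose, 4.46-fold at its brighter probe set, and no other of the 22 ligand probe sets passed the test. That call held in 2 of 14 alternative settings, and the other EREG probe set, which was dim, differed by 0.08. Probe sets of the neuregulin gene NRG1 reached a similar measured difference, up to 2.06 on the log2 scale, with a wider spread between arrays, and did not pass. A probe set of TGFA differed by 0.88 and the brighter probe sets of HBEGF by 0.71 and 0.67 (log2), and these did not pass either. The 7 probe sets of EGF, BTC, NRG2 and NRG4 were dim on every array and differed by -0.17 to 0.09. A probe set was called, here and below, at an adjusted p under 0.05 in a limma fit of C/EBPbeta-2 minus control over all 54613 probe sets.

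Over all probe sets, 0.0659% were called in either direction and 0.0275% were called as higher with C/EBPbeta-2, against 1 of the 22 ligand probe sets (4.55%), which was higher. The values of the groups did not overlap, with C/EBPbeta-2 above control, in 5 ligand probe sets (22.7%) and in 3.87% of all probe sets. These 5 were 1 of EREG, 1 of TGFA and 3 of NRG1. At an unadjusted p under 0.05, 6 ligand probe sets (27.3%) were higher with C/EBPbeta-2, against 1.92% of all, and 0 were lower. Those 6 were the 5 above and 208241_at of NRG1. Probe sets of 1 gene share their target, so these counts are not counts of independent genes. The ligands were also chosen with earlier results of these data known, so the shares here are descriptions and not an independent test. Of the 22 differences 16 were above 0 (72.7%, against 49.8% of all probe sets), and their median was 0.08, against -0.001 over all. Read as 1 value per gene at the brightest probe set, 1 of 8 ligands was called, again EREG, while 0.273% of 19775 genes were called.

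**Figure D1:**
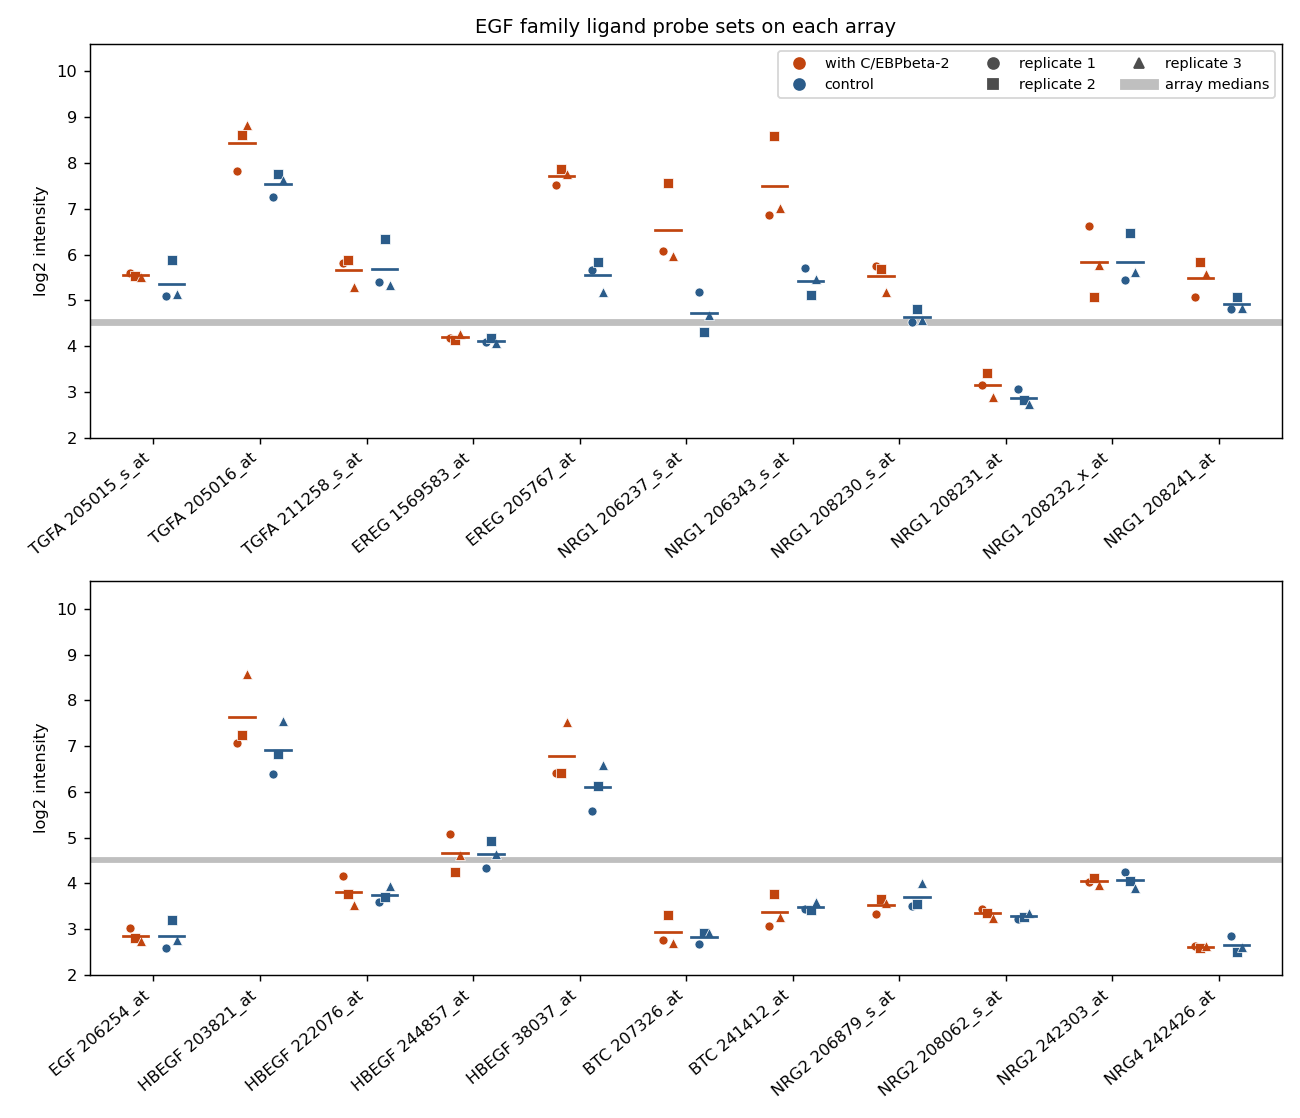
Log2 intensity of each of the 22 ligand probe sets on each array, with C/EBPbeta-2 (orange, left) and control (blue, right); marker shapes give the replicate, bars the group means, and the grey band the 6 array medians. EREG 205767_at shows the tightest separation of the groups, NRG1 206343_s_at a wide one in which C/EBPbeta-2 replicate 2 lies highest at 8.59, and 10 probe sets lie below the medians on every array.

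The arrays differed in ways the groups did not explain. The probe sets for poly-A spike-in RNA, a control meant to be added before labelling, read low on a single array of each group. They read 3.73 for C/EBPbeta-2 replicate 2 and 3.86 for control replicate 1 (mean log2 intensity). Both values lie below the array medians of 4.46 to 4.56, and whether that RNA was added to these samples is not known here. The remaining 4 arrays read 6.75 to 7.65. The same 2 arrays had the largest 3' over 5' excess of the ACTB control probe sets, 1.32 and 1.48 against -0.04 to 0.64. The GAPDH control probe sets showed no such excess on them, 0.22 and 0.12 against 0.21 to 0.32. The 18S RNA control was lowest on these 2 arrays, 5.62 and 8.05 against 10.09 to 12.19 (mean log2 intensity). Between groups the spike-in level differed by 0.18 (two-sided exact permutation p = 1, where 0.1 is the smallest possible). Each spike-in level held arrays of both groups, so differences are also given within the low level (1 array each) and the high level (2 arrays each). CEBPB, read at its brightest probe set, was 10.29, 10.50 and 11.38 with C/EBPbeta-2 and 11.27, 11.38 and 11.37 in control cells (log2 intensity), a difference of -0.62 (SE 0.30, adjusted p = 1.00 over genes). Which part of the transcript its probes read is not known here, so the gene checks no label. Of the mammary epithelial markers listed for this work, 5 of 7 had a probe set with that gene as its only annotated symbol. All 5 (KRT5, KRT14, LAMB3, EPCAM and CDH1) read above the array medians on every array. Their summed intensity was 9777 to 13599 with C/EBPbeta-2 and 17319 to 23190 in control cells. KRT14, a basal keratin, fell by 3.00 and CDH1, the E-cadherin gene, by 2.14 (log2, adjusted p = 0.03 and 0.0245 over genes). The other 3 markers were not called, with differences of 1.17 (LAMB3), 0.03 (EPCAM) and -0.13 (KRT5). Summed intensities of the stromal markers were 284 to 474 with C/EBPbeta-2 and 665 to 3623 in control cells, those of the leukocyte markers 172 to 217 with C/EBPbeta-2 and 118 to 133 in control cells, and those of the endothelial markers 59 to 64 with C/EBPbeta-2 and 59 to 85 in control cells. The stromal sums were carried by DCN, which encodes decorin. It read 8.16, 7.38 and 7.11 with C/EBPbeta-2 and 11.76, 9.74 and 8.98 in control cells (-2.61, adjusted p = 0.417 over genes), while the other 5 stromal genes differed by -0.25 to 0.39. The leukocyte sums were carried mostly by CD14, the brightest of those markers (0.92, adjusted p = 0.266 over genes). PTPRC, CD3E and ITGAM differed by 0.09, -0.06 and 0.29. In those lists DCN and COL1A1 (of 6 stromal genes), CD14 (of 4 leukocyte genes) and PECAM1 (of 3 endothelial genes) read above the medians on every array, while PTPRC, CDH5, COL3A1 and LUM averaged 3.31, 2.72, 3.67 and 2.72. The part of these shifts in the ligand results was not tested. In such samples, fewer cells with a transcript and less transcript per cell cannot be told apart.

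EREG encodes epiregulin, which binds EGFR and ERBB4. Its probe set 205767_at read 7.53, 7.87 and 7.76 with C/EBPbeta-2, against 5.66, 5.84 and 5.19 in control cells (log2 intensity). Every C/EBPbeta-2 array lay above every control array, and the gap between the groups was larger than the range within either. On the linear scale these values were 184, 234 and 216 with C/EBPbeta-2, against 50.5, 57.1 and 36.4 in control cells. The means were 7.72 ± 0.18 and 5.56 ± 0.34 (SD, n = 3 each), a log2 difference of 2.16 (SE 0.22, 95% interval 1.64 to 2.67, adjusted p = 0.0483). It was the last of the 36 called probe sets by p, and over genes its adjusted p was 0.0245. Within the low spike-in level the difference was 2.21, and within the high level 2.13, so it was about as large in each.

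Over the 14 alternative settings of this probe set the difference was 1.84 to 2.32, and it was called in 2 of them. Read by gene, EREG was called in 8 of 16 alternatives, and the mean of its probe sets differed by 1.12 (adjusted p = 0.0594). Leaving out any 1 array gave differences of 1.97 to 2.30 and adjusted p-values of 0.0632 (without control replicate 2) to 0.24 (without C/EBPbeta-2 replicate 3), each with fewer arrays in the fit. With the replicate number as a block the adjusted p was 0.312. That block groups same-numbered arrays, whose deviations from the group means correlated at -0.453, -0.553 and 0.42, so they did not behave as pairs throughout. The second EREG probe set, 1569583_at, read 4.17, 4.13 and 4.27 with C/EBPbeta-2 and 4.09, 4.18 and 4.07 in control cells. Those values lay below the median of every array and differed by 0.08 (95% interval -0.25 to 0.41). The 2 probe sets of this gene therefore gave different results. Values as dim as those of the second show neither presence nor absence of a transcript. Where the probes of the 2 lie along the transcript was not examined.

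EREG lies on human chromosome 4 in a run of 4 ligand genes, EPGN, EREG, AREG and BTC, with no other protein-coding gene listed between them in RefSeq. Promoter windows from RefSeq (GRCh38.p14, 250 bases before to 50 after the gene start) were read for 7 of the 8 measured ligands, with 9 windows in all. No window of NRG1 was read, as windows on its chromosome were left out, so the counts of ligand windows below do not cover it. The window of EREG, the called ligand, is printed beside that of BTC, the measured ligand of the same run that did not pass the test. BTC does not lie next to EREG, since AREG lies between them. Capitals mark matches on either strand to 5 motifs. These are TTNNGNAA and, more strictly, TTGCNNAA (forms of the site that C/EBP factors bind), the CCAAT box, the TATA box written as TATAAA, and an AP-1 site written as TGANTCA.
EREG, chr4:74364895-74365194, plus strand: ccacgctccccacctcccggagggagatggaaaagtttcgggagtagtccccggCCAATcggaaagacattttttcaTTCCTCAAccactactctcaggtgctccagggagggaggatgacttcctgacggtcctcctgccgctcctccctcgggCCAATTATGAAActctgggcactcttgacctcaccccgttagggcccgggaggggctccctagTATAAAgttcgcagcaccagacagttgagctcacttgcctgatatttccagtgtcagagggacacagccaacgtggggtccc
BTC, chr4:74794474-74794773, minus strand: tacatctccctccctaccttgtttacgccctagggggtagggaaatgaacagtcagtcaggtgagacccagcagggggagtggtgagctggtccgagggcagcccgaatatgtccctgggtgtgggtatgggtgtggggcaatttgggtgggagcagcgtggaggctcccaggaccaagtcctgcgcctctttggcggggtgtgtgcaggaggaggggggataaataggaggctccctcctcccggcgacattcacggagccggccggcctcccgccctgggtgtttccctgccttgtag
The EREG window held 2 matches to TTNNGNAA, at bases 78 to 85 and 160 to 167 counted from its 5' end, 2 to CCAAT and 1 to TATAAA, and the second CCAAT overlapped the second TTNNGNAA by its last base. The BTC window held 0 matches to any of the 5 motifs. EPGN and AREG, which lie next to EREG, had no probe set in the annotation used here. The EPGN window held 2 matches to TTNNGNAA, 1 to CCAAT and 1 to TATAAA, and the AREG window only 1, to TATAAA. TTNNGNAA was in 36.8% of 35116 such windows, CCAAT in 34.6%, TATAAA in 11.5%, TTGCNNAA in 10.5% and TGANTCA in 7.71%. Of the 9 windows of measured ligands 3 held TTNNGNAA (EREG, EGF and NRG4) and 0 held TTGCNNAA. A match describes the letters of the window and is not a site of binding.

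NRG1 encodes neuregulin 1, a ligand of ERBB3 and ERBB4 that is made in many isoforms from several promoters, and its 6 probe sets gave different values. The suffixes _s_at and _x_at, carried by 4 of them, mark probes that can read several or related transcripts. These include all 3 NRG1 probe sets whose groups did not overlap. Without probe sets of these suffixes the NRG1 gene value was 0.58 (adjusted p = 0.972 over genes), and as a mean of its probe sets 0.93 (0.216), against 2.06 at the brightest (0.269). Probe set 206343_s_at read 6.87, 8.59 and 7.01 with C/EBPbeta-2, against 5.71, 5.11 and 5.47 in control cells (log2 intensity). The groups did not overlap, and C/EBPbeta-2 replicate 2 stood well above every other array. The log2 difference was 2.06 (SE 0.47, 95% interval 0.93 to 3.19, adjusted p = 0.477), or 4.17-fold in measured means.

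Probe set 206237_s_at of NRG1 read 6.08, 7.56 and 5.97 with C/EBPbeta-2, against 5.18, 4.31 and 4.69 in control cells. It differed by 1.81 (SE 0.46, adjusted p = 0.599), and, as at 206343_s_at, replicate 2 was the highest with C/EBPbeta-2 and replicate 1 the highest in control cells. Those are the 2 arrays of low spike-in level. Within the low level the differences of 206343_s_at and 206237_s_at were 2.88 and 2.38, and within the high level 1.65 and 1.52, so both stayed above 0 in each level. Without C/EBPbeta-2 replicate 2 they were 1.51 and 1.30.

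A dimmer NRG1 probe set, 208230_s_at, also had groups that did not overlap. It read 5.75, 5.69 and 5.18 with C/EBPbeta-2, against 4.52, 4.82 and 4.58 in control cells, a difference of 0.90 (SE 0.20, adjusted p = 0.463). Probe set 208241_at read 5.08, 5.84 and 5.57 with C/EBPbeta-2 and 4.82, 5.08 and 4.84 in control cells, so that replicate 1 with C/EBPbeta-2 met control replicate 2 at 5.08. Its difference was 0.58 (95% interval 0.04 to 1.13, adjusted p = 1.00).

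The remaining NRG1 probe sets showed no separation of the groups. Probe set 208232_x_at read 6.62, 5.08 and 5.78 with C/EBPbeta-2 and 5.45, 6.46 and 5.61 in control cells. There C/EBPbeta-2 replicate 2 was the lowest of the 6 arrays, the reverse of its place in 206343_s_at, and the difference was -0.02 (95% interval -1.08 to 1.05). Probe set 208231_at lay below the medians on every array, at 2.73 to 3.41, and differed by 0.27. No difference between NRG1 probe sets was itself tested.

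**Figure D2:**
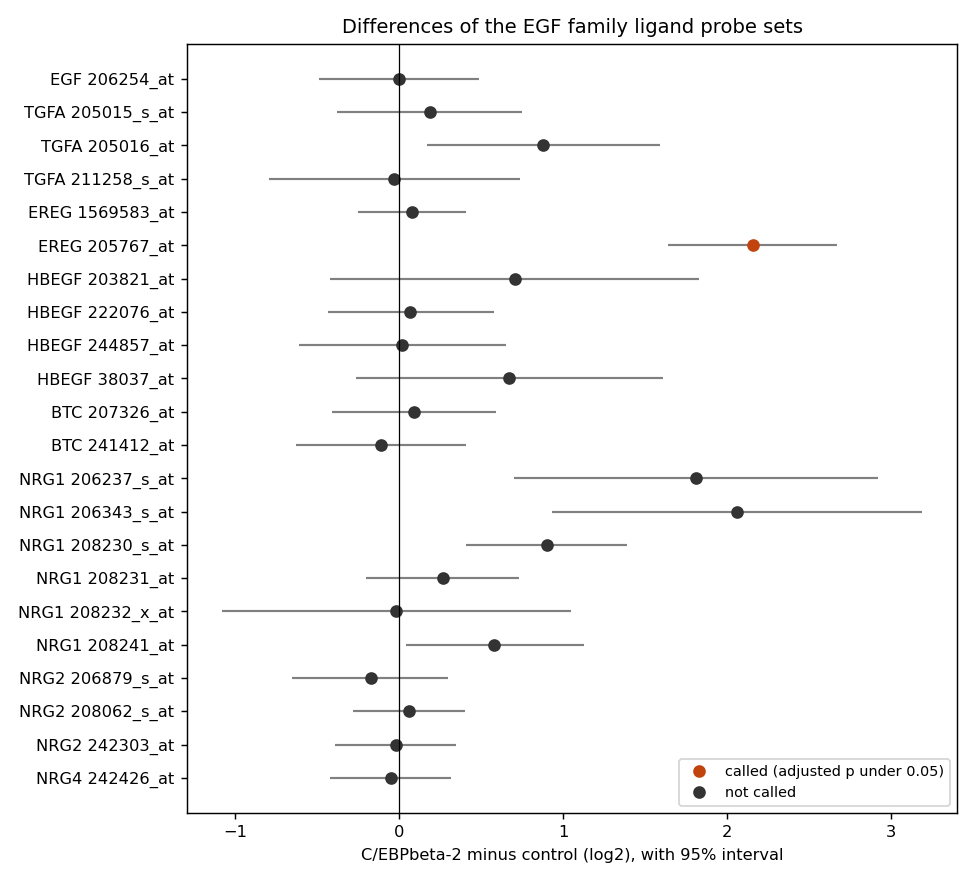
Log2 difference, C/EBPbeta-2 minus control, of each ligand probe set with its unadjusted 95% limma interval; orange marks a call at adjusted p under 0.05. EREG 205767_at is the only called point, and the intervals of 5 other probe sets (4 of NRG1 and 1 of TGFA) also lie above 0.

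NRG2 and NRG4, the other neuregulins measured, stayed at the level of dim probe sets. NRG4, a ligand of ERBB4, read 2.63, 2.58 and 2.63 with C/EBPbeta-2 and 2.86, 2.50 and 2.62 in control cells at 242426_at, with overlapping groups and a difference of -0.05 (95% interval -0.42 to 0.32). The 3 NRG2 probe sets differed by -0.17 (206879_s_at), 0.06 (208062_s_at) and -0.02 (242303_at), with values of 3.23 to 4.24 over all arrays. Genes of other tissues, listed as a level for dim probe sets, averaged 2.61 (CPA1) to 4.75 (GFAP) over 11 genes such as ALB (3.17) and INS (3.55). The array medians were 4.46 to 4.56. No detection calls were used here, so these values show neither presence nor absence of the transcripts.

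Among the ligands that bind EGFR, TGFA, the gene of transforming growth factor alpha, had 3 probe sets with different outcomes. Probe set 205016_at read 7.83, 8.62 and 8.83 with C/EBPbeta-2, against 7.25, 7.76 and 7.62 in control cells (log2 intensity). The groups did not overlap, although C/EBPbeta-2 replicate 1 lay close to control replicate 2. The difference was 0.88 (SE 0.30, 95% interval 0.17 to 1.59, adjusted p = 0.978), a measured 1.85-fold, with 1.37 within the low spike-in level and 0.64 within the high one.

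The other TGFA probe sets, 205015_s_at and 211258_s_at, differed by 0.19 and -0.03. The first read 5.59, 5.54 and 5.52 with C/EBPbeta-2 and 5.09, 5.87 and 5.13 in control cells. The second read 5.82, 5.87 and 5.29 with C/EBPbeta-2 and 5.40, 6.33 and 5.34 in control cells. Control replicate 2 was the highest array in both, and the groups overlapped.

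HBEGF encodes heparin-binding EGF-like growth factor, whose precursor is also the receptor of diphtheria toxin. Probe set 203821_at read 7.07, 7.25 and 8.57 with C/EBPbeta-2, against 6.40, 6.83 and 7.54 in control cells. Probe set 38037_at read 6.41, 6.41 and 7.52 with C/EBPbeta-2, against 5.59, 6.13 and 6.59 in control cells. In both probe sets replicate 3 was the highest array of each group, and control replicate 3 lay above 2 of the 3 C/EBPbeta-2 arrays. The differences were 0.71 (95% interval -0.42 to 1.83) and 0.67 (-0.26 to 1.61), each with adjusted p = 1.00. Without C/EBPbeta-2 replicate 3 they were 0.23 and 0.30, and without control replicate 3 they were 1.01 and 0.92. Probe sets 222076_at and 244857_at of HBEGF differed by 0.07 and 0.02, with values of 3.53 to 4.16 and 4.26 to 5.08.

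EGF, the founding ligand, read 3.03, 2.80 and 2.74 with C/EBPbeta-2 and 2.60, 3.20 and 2.77 in control cells at 206254_at. The difference was 0.00 (95% interval -0.49 to 0.49), on a probe set below the median of every array. The protein in the medium is not read by an array. BTC, the betacellulin gene, was as dim, with 2.68 to 3.32 at 207326_at and 3.06 to 3.78 at 241412_at. Its differences were 0.09 and -0.11, with intervals of -0.41 to 0.59 and -0.63 to 0.41. Both BTC probe sets were highest on C/EBPbeta-2 replicate 2, at 3.32 and 3.78.

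**Figure D3:**
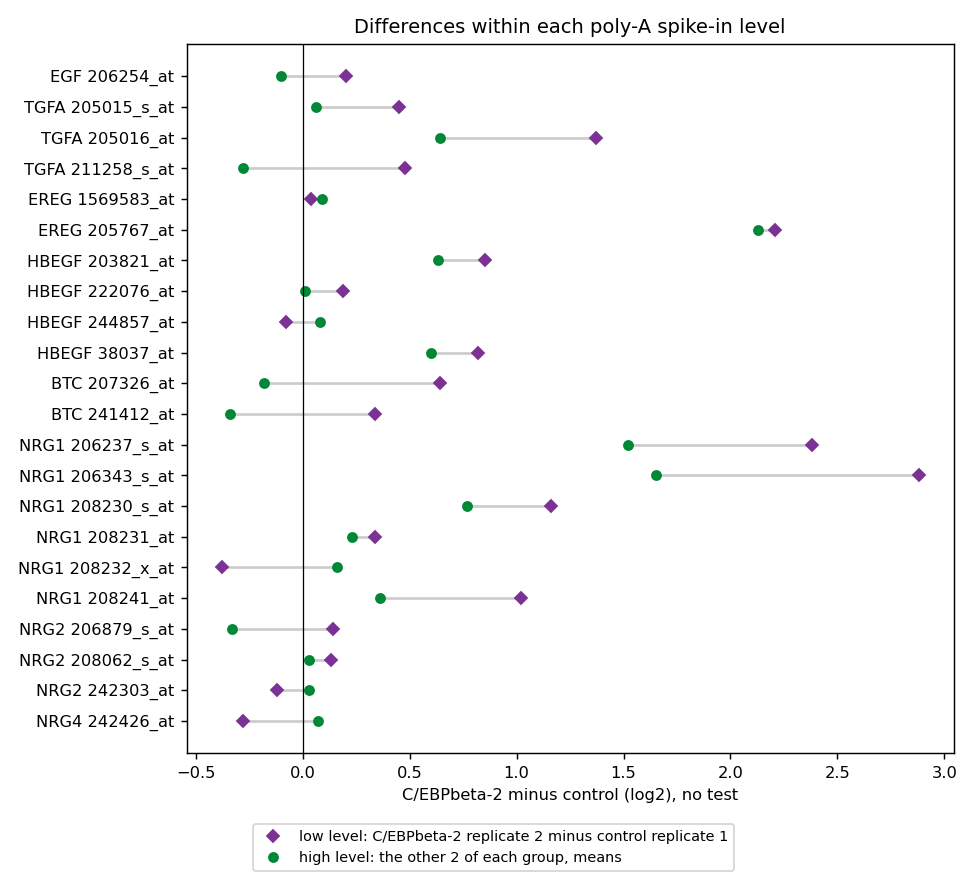
Log2 difference, C/EBPbeta-2 minus control, of each ligand probe set within the low poly-A spike-in level (diamonds, 1 array each) and the high level (circles, means of 2 arrays each), with no test. EREG 205767_at gives 2.21 and 2.13, and NRG1 206343_s_at gives 2.88 and 1.65. Both BTC probe sets lie on opposite sides of 0 in the 2 levels, as do probe sets of EGF, TGFA, HBEGF, NRG1, NRG2 and NRG4.

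Genes whose profile over the 6 arrays was most like that of the ligands with the widest spread, NRG1 (SD 1.30) and EREG (SD 1.21), were named by the root mean square difference in log2 after each gene's own mean was removed. For EREG these were TMEM158 (0.25), ZNF697 (0.25) and CEMIP2 (0.29). For NRG1 at 206343_s_at they were MAP3K7CL (0.32), KRT80 (0.33) and WAKMAR2 (0.38). Since the measured means of EREG and NRG1 lay apart between the groups, those of genes chosen as close to them do too. The differences were 1.68 to 2.08 for the first 3 and 1.81 to 2.31 for the second 3 (log2). Over genes TMEM158 and CEMIP2 were called (adjusted p = 0.0121 and 0.0326), the others were not (0.0555 to 0.157), and neither was NRG1 itself. The probe sets of MAP3K7CL and WAKMAR2 were dim enough to be removed by the filter of dim probe sets.

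The rest of the ERBB pathway was read at 1 probe set per gene in 4 lists, in which limma called 0 of 43 genes, against 0.273% of all genes. At an unadjusted p under 0.05, 6 of the 43 were higher with C/EBPbeta-2 and 0 were lower, while 2.52% of all genes were higher at that threshold. Among the receptors 0 of 4 were called. ERBB3, the kinase-impaired receptor of neuregulins, read 6.56, 6.28 and 6.63 with C/EBPbeta-2 and 6.28, 5.11 and 5.47 in control cells. It differed by 0.87 (SE 0.31, adjusted p = 0.759), with 0.00 within the low spike-in level and 1.30 within the high one. EGFR, the brightest of the 4, averaged 10.86 with C/EBPbeta-2 and 10.81 in control cells (log2 intensity), a difference of 0.05. ERBB4 differed by 0.53, with 4.56 on C/EBPbeta-2 replicate 1 and 3.38 to 3.64 on the other 5 arrays. Those 5 values lay below the array medians, and without replicate 1 with C/EBPbeta-2 the ERBB4 difference was 0.21. ERBB2, the receptor with no ligand of its own, differed by 0.12, and -0.06 without control replicate 2. The median difference of the receptor list, which falls between ERBB2 and the dim ERBB4, was 0.32, against 0.009 over all genes.

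Of 13 genes of ligand release and partners, such as the sheddases ADAM10 and ADAM17, 0 were called and 0 had an unadjusted p under 0.05. The differences ran from -0.67 to 0.24, with a median of -0.06. The largest in size were those of ADAM19 (-0.67), ADAM15 (-0.49) and ADAM9 (-0.34), and ADAM19 was highest on control replicate 2, with 4.42 to 4.69 on the remaining 5 arrays. Leaving out 1 array brought ADAM19 to -0.23 (control replicate 2), ADAM15 to -0.15 (C/EBPbeta-2 replicate 2) and ADAM9 to -0.13 (control replicate 1). In the list of receptor restraint, 0 of 9 were called, 0 had an unadjusted p under 0.05 and the median was -0.12. LRIG3, listed here as a relative of LRIG1, differed by -1.0, and whether it restrains ERBB receptors in these cells was not tested. ERRFI1, a feedback inhibitor of EGFR, differed by 0.75 (0.49 without control replicate 3), and SOCS4 by 0.41, which became -0.08 without control replicate 2.

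Among 17 genes that respond to ERBB signalling, 0 were called and 5 were higher at an unadjusted p under 0.05, against 2.52% of all genes. In 14 the difference was above 0, as it was in 51.9% of all genes, and the list's median was 0.45. The largest were in SPRY4, a feedback inhibitor of MAP kinase signalling (1.55, SE 0.56, adjusted p = 0.763), PHLDA1 (1.35, SE 0.53, adjusted p = 0.873) and the immediate early gene IER3 (1.34, SE 0.54, adjusted p = 0.908). Single arrays moved each of them: SPRY4 was 0.97 without C/EBPbeta-2 replicate 3, and PHLDA1 and IER3 were each 0.89 without control replicate 1. SPRY4 read 6.89, 6.83 and 8.58 with C/EBPbeta-2, against 5.27, 6.65 and 5.73 in control cells, so control replicate 2 came close to the lower C/EBPbeta-2 arrays. Its difference was 1.56 within the low spike-in level and 1.55 within the high one. IER3 overlapped between groups, with C/EBPbeta-2 replicate 2 at 10.80 below control replicate 2 at 11.07. SPRED2, a further inhibitor of that pathway, was named after its values were seen, for the lowest p of the list. It read 8.16, 8.73 and 8.41 with C/EBPbeta-2 and 7.17, 7.05 and 7.75 in control cells, and differed by 1.11 (SE 0.26, adjusted p = 0.283), but by 0.29 as the mean of its probe sets (adjusted p = 1.00).

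**Figure D4:**
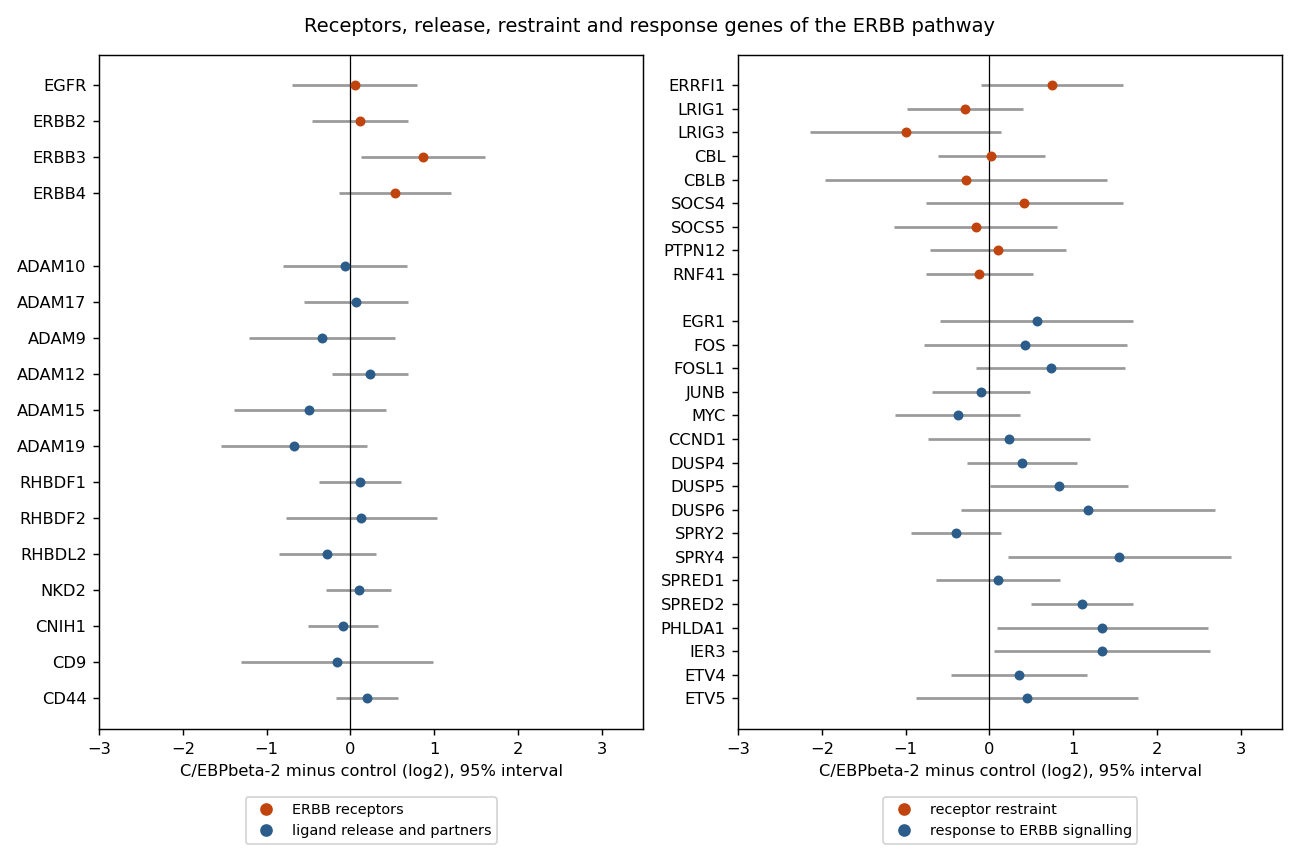
Log2 difference, C/EBPbeta-2 minus control, of the 43 ERBB pathway genes in 4 lists, each at its brightest probe set, with unadjusted 95% limma intervals. None was called, the release genes lie between -0.67 and 0.24, and 14 of the 17 response genes lie above 0.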

How the data were processed

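Total RNA of 6 MCF10A samples was hybridised to Affymetrix arrays. Each array came with 1 deposited intensity for every probe set. RMA is named in the submitters' processing notes, with no version or settings. The scale is linear (4.17 to 17825, array medians 22.0 to 23.6), and the sources used here do not say how RMA values came to it. The number of arrays limits the precision.

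Intensities were taken as log2, adding no pseudocount and normalizing no further. The 62 control probe sets named AFFX were set aside. The annotation gave 1 gene symbol for 41091 of 54613 tested probe sets, several for 1801 and none for 11721. The difference, C/EBPbeta-2 minus control, came from limma 3.58.1 in R 4.3.3 (functions lmFit and eBayes) with no covariate, two-sided, with Benjamini-Hochberg adjustment over all probe sets, or over 19775 genes at the probe set with the highest mean. All adjusted and unadjusted p-values of single probe sets and genes are limma's. Intervals are limma's 95% intervals, unadjusted. The fit was checked on simulated data with planted differences. Those data were drawn independently for each probe set and array, so the check does not cover differences shared across an array. Python 3.11.15, pandas 2.3.3, numpy 2.4.6 and matplotlib 3.10.9 were also used.

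Members and lists were chosen with earlier results of these data known. Named were all ligands, up to 3 genes of each list with the largest difference, CEBPB, and 3 genes each closest in profile to the 2 ligands of widest spread. EGFR was added as the receptor of several ligands, and SPRED2 for the lowest p of its list. Same-numbered replicates were not taken as pairs: their deviations from the group means correlated at -0.453, -0.553 and 0.42. Higher correlations lay between arrays of different numbers. They were 0.659 for C/EBPbeta-2 replicate 2 with control replicate 1, and 0.637 for C/EBPbeta-2 replicate 1 with control replicate 2. No fit took those arrays as pairs, and what they share was not tested. The replicate block among the alternatives grouped same-numbered arrays. Alternatives left out each array, added a replicate block or a spike-in term, renormalized, filtered dim probe sets, and changed the variance prior, array weights, pseudocount and reading of genes.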

Additional observations from a re-analysis of the deposited data

How the results depend on the processing

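The number of ligand probe sets called was 1, and 0 without any 1 array (0 to 0), with the replicate block, after quantile normalization again, with arrays centred on their medians, with a trended and robust prior, with a spike-in term and with log2(value + 16). It stayed 1 with dim probe sets left out and with array weights. The EREG difference at 205767_at was 1.97 to 2.30 with 1 array left out. In the other settings that lost its call it was 2.16 (replicate block, adjusted p = 0.312), 2.11 (quantile, 0.0609), 2.18 (centring, 0.0517), 2.16 (trended prior, 0.057), 2.17 (spike-in term, 0.0621) and 1.84 (log2(value + 16), 0.102). Over its 14 alternatives the adjusted p ranged from 0.0165 to 0.312.

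Read by gene, the number of ligands called was 1, and 0 with the replicate block, with log2(value + 16), with probe sets averaged per gene, and without any array but control replicate 2 (0 to 1). EREG differed by 1.97 to 2.30 with 1 array left out, 2.16 with the block (adjusted p = 0.19), 1.84 with log2(value + 16) (0.0526) and 1.12 as a mean of probe sets (0.0594), and was called in 8 of 16 alternatives (0.00384 to 0.19). The 4 pathway lists had 0 calls in every alternative run. Over all probe sets 36 were called, 5 to 37 with 1 array left out, 0 with the replicate block, 78 without dim probe sets, 67 with the trended prior, 122 with array weights and 17 with log2(value + 16).

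Small differences that were not called changed sign. EGF gave -0.13 to 0.17 with 1 array left out, -0.01 with the spike-in term and 0.00 with log2(value + 16). TGFA 211258_s_at gave -0.20 to 0.29 with 1 array left out and 0.10 with array weights, and HBEGF 222076_at gave -0.09 to 0.22 and -0.07. HBEGF 244857_at gave -0.19 to 0.22 with 1 array left out and 0.00 with the spike-in term, and BTC 207326_at and 241412_at gave -0.10 to 0.20 and -0.32 to 0.04. NRG1 208232_x_at gave -0.41 to 0.36 with 1 array left out, 0.01 with centring and 0.11 with array weights. NRG2 242303_at gave -0.11 to 0.06 and 0.00 with centring, and NRG4 gave -0.13 to 0.05. ERBB2 gave -0.06 to 0.32 with 1 array left out and -0.01 as a mean of probe sets, and SOCS4 gave -0.08 to 0.74. The cause of these changes was not tested. The number of arrays limits what the test can call, and dim probe sets have no stated background.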
